A study of Mus musculus with 19 samples.

Results

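The kinesin family of microtubule motors was examined in single mouse blastocysts that lacked or kept the nonsense-mediated RNA decay (NMD) factor UPF2. Kinesin genes were taken from the count table by their GRCm38 symbol, *Kif* with a number and an optional letter a to c or *Kifc* with a number, and were kept when any 1 embryo held 10 or more counts of them. Of 43 such symbols among the 41388 genes of the table, 38 were kept, beside 17137 kept genes in all. They were split by known function into 14 mitotic, 17 transport and 7 other kinesin genes. The 5 symbols that were not kept were *Kif6* and *Kif7*, with 15 counts each over all embryos, and *Kif12*, *Kif2b* and the pseudogene *Kifc5c-ps*, with 0 counts in every embryo.

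Kinesins are motor proteins that use ATP to move along microtubules or to take them apart at their ends. One set works in dividing cells, where it builds the bipolar spindle, aligns chromosomes and organises the central spindle for cytokinesis. Another set carries cargo such as mitochondria, endosomes and the components of cilia. The blastocyst is made of cells in rapid division, and its outer trophectoderm is a polarised epithelium.

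The mutant embryos were 8 *Upf2*-null blastocysts (KO), homozygous for a deletion of *Upf2* exons 2 and 3 that leaves a truncated protein without NMD activity, and they were set against 11 *Upf2*+/+ blastocysts (WT). The deletion came from a floxed allele recombined by Cre under the *E2a* promoter, and both genotypes came from crosses of heterozygous parents on a C57BL/6 background, so that the eggs of both genotypes could carry UPF2 from the mother. Zygotes from superovulated dams of 4 to 8 weeks were cultured in M16 medium to E3.25, 90 to 94 h after hCG. Each library held the mRNA of 1 whole embryo, and the labels do not give its litter.

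Total counts per embryo ran from 4068350 to 5993745 in KO and from 4056072 to 5854659 in WT. Values are given in CPM, in which each count is scaled to the total of its library, after correction by trimmed mean of M values, and levels of different genes are compared as CPM per kb of merged exons. The targeted gene had 64.3 to 123 CPM in KO against 37.2 to 87.8 CPM in WT. Its count covers exons outside the deletion and therefore did not check the genotype labels. All 8 of 8 listed markers were measured for each of epiblast, primitive endoderm and trophectoderm, and 0 of 8 cumulus and granulosa cell markers, of which 2 had no count in any embryo and the rest at most 3 in an embryo. Between 15547 and 16906 genes were detected in KO embryos and between 16193 and 17084 in WT embryos, apart from WT embryo 5 with 14522. In whole embryos, fewer cells of a type and less RNA per cell cannot be told apart.

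Mitotic kinesin genes were the most abundant kinesin genes of these blastocysts. Per kb of exon and over all 19 embryos, their median level was 20.8 CPM per kb, with a range of 0.563 to 70.7, against 2.24 CPM per kb (0.0884 to 29.7) for transport and 0.36 CPM per kb (0.0253 to 2.51) for other kinesin genes. The 11 highest levels included 9 mitotic genes. The only transport genes among them were *Kif5b*, the widely expressed heavy chain of conventional kinesin, and *Kif3a*, a subunit of the kinesin-2 motor of cilia.

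*Kif20a*, which brings the chromosomal passenger complex to the central spindle, had the highest level, at 70.7 ± 11.2 CPM per kb (SD, n = 19). Next came the chromokinesin *Kif22* at 63.9 ± 13.5 CPM per kb. The order of these 2 genes was within their spread. A gap larger than the SD of either neighbour separated *Kif22* from *Kif23*, a centralspindlin subunit with 38.7 ± 7.01 CPM per kb. That gap came from the merged exon lengths, 4903 bases for *Kif22* and 7901 for *Kif23*. Before division by length, mean CPM over all embryos was close, at 313 for *Kif22*, 307 for *Kif20a* and 306 for *Kif23*. The SD between embryos does not cover uncertainty in the lengths. *Kif23* was followed by *Kif2c* (36.5 ± 6.36), a centromeric microtubule depolymerase, *Kif20b* (32.2 ± 7.58), which acts in late cytokinesis, and *Kif5b* (29.7 ± 6.13), all in CPM per kb. *Kif11* (29.4 ± 5.97), the motor that pushes spindle poles apart, and *Kif18b* (25.8 ± 10.2), which trims astral microtubules, came next in CPM per kb. Of the 37 steps from one gene to the next in the order of levels, 2 exceeded 1 SD: the one after *Kif22* and the one between *Kif18a* (13.7 ± 3.26 CPM per kb) and *Kif15* (7.54 ± 1.79 CPM per kb).

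**Figure D1:**
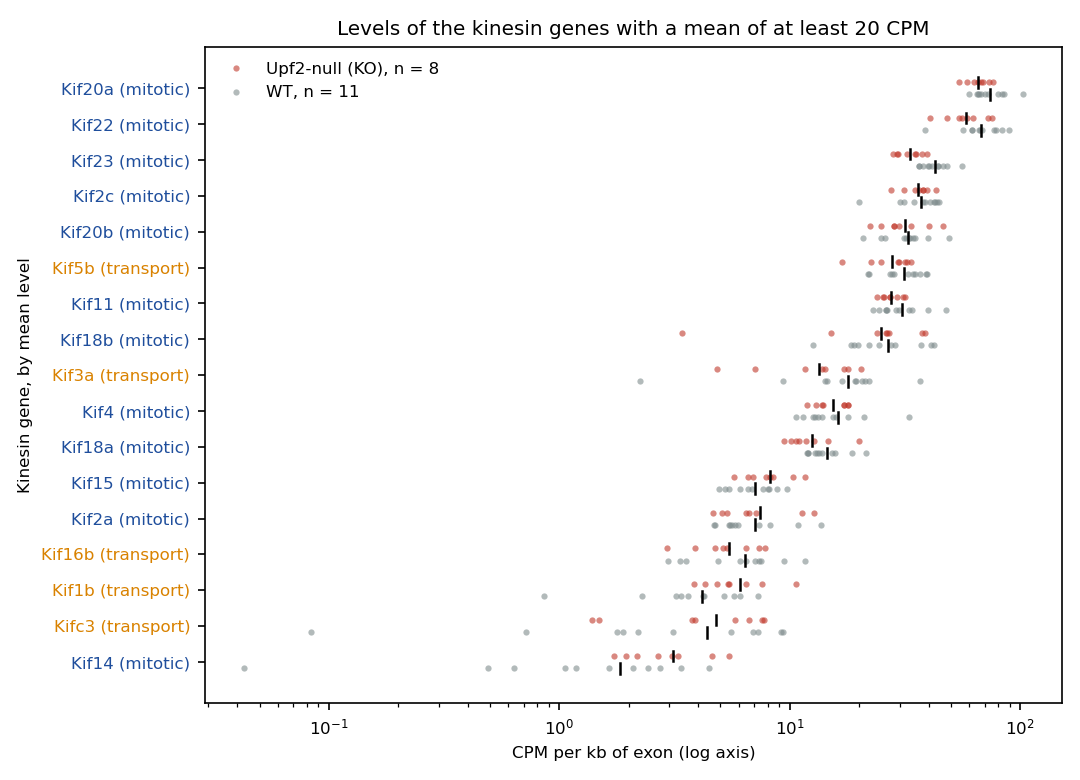
Level of the 17 kinesin genes with a mean of at least 20 CPM, in CPM per kb of exon on a log axis; each point is an embryo (red, KO, n = 8; grey, WT, n = 11), black bars are means, and label colours mark mitotic (blue) and transport (orange) genes. Mitotic genes fill the first 5 places, led by *Kif20a* at 70.7 CPM per kb, and the KO and WT points of every gene overlap.

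Exon length does not correct for reads that other genes could share. Among the leading genes, 25.2% of the distinct 50-base stretches of *Kif20a* also lie in another gene, mostly *Cdc23* on the opposite strand. In the lowest 2 mitotic genes, *Kifc1* and *Kifc5b*, near-identical copies of one another, the shares were 39.7% and 37.4%, so counts of both are uncertain. Further shares above 10% were found for *Kif3c* (39.6%), *Kifc3* (20.7%), *Kif2a* (19.7%) and *Kif4* (14.5%). The annotation placed exons of 11 members over exons of a gene on the opposite strand, and the strand setting of the counting is not given in the sources used here.

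The promoters of the classes differed in a short element, the cell cycle genes homology region (CHR), which is known as a binding site of MuvB complexes that repress genes of late cell cycle phases in resting cells and activate them before mitosis. RefSeq promoters of GRCm38.p6, from 250 bases before to 50 after the start of a gene, were available for 29 of the 38 members and searched on both strands for TTTGAA or TTCGAA, of which TTCGAA reads the same on both strands. A match was present in 11 of 13 mitotic (84.6%), 1 of 11 transport (9.09%) and 3 of 5 other kinesin promoters (60%), beside 21.7% of all 27025 genes with a promoter. The median GC content was 63% for mitotic, 69.3% for transport and 52.7% for all promoters. Among genes with a GC content within the range of the mitotic promoters, 18.5% had a match, and within that of the transport promoters 14.3%. Mitotic promoters without one were those of *Kif18a* and *Kif2a*, and the near copies *Kifc1* and *Kifc5b* were counted as separate matches. No promoter was available for the mitotic *Kif20a* or for the transport genes *Kif5b*, *Kif5a*, *Kif13b*, *Kif21b*, *Kifc2* and *Kifc3*. CCAAT, the box bound by NF-Y and searched on both strands too, was found in 8 of 13 mitotic (61.5%), 3 of 11 transport (27.3%) and 3 of 5 other promoters (60%), and in 41.1% of all.

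A CHR match lay within 35 bases of the RefSeq start, a distance chosen after the matches were seen, in 9 of 13 mitotic and 0 of 11 transport promoters, and in 4.68% of all genes. Windows of 30 bases are printed for 7 of these mitotic genes to show how closely the element sits to the start, read 5′ to 3′ on the strand of the gene. Capitals mark the match, which appears as TTTGAA or as its reverse complement TTCAAA. *Kif23* is given first because its counts differ most clearly below.
Kif23 (chr9:61946780-61946809, minus strand, match from base +3): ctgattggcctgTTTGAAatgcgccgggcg
Kif20b (chr19:34922353-34922382, plus strand, match from base +8): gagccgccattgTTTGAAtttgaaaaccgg
Kif18b (chr11:102925104-102925133, minus strand, match from base +4): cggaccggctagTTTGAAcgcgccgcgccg
Kif4 (chrX:100626072-100626101, plus strand, match from base +20): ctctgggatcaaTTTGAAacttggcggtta
Kif11 (chr19:37376351-37376380, plus strand, match from base −19): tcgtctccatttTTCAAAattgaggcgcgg
Kif15 (chr9:122951050-122951079, plus strand, match from base −19): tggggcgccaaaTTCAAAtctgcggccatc
Kif22 (chr7:127042420-127042449, minus strand, match from base −17): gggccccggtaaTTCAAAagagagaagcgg
In *Kif23* a CCAAT match, reading ATTGG, began at base −7, just ahead of the CHR match at +3 and inside the printed window. *Kif20b* carried a second TTTGAA directly after the first, at +14. The single transport match was in *Kif1a*, at base −44. These are matches of letters, and binding was not measured.

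No kinesin gene passed the edgeR test between KO and WT embryos. By edgeR, 0 of 38 members had an adjusted p under 0.1, where 33 of all 17137 genes did (0.193%). At an unadjusted p under 0.05 there was 1 member, *Kif23*, or 2.63% of the family, against 12.5% of all genes. DESeq2 called 1 member, again *Kif23*, at its adjusted p under 0.1, against 1.2% of the genes it tested, and gave no adjusted p for *Kif17*, *Kif26a*, *Kif26b* and *Kif28*. With limma voom, 0 members passed, against 0.654% of all genes, and 5 or 13.2% had an unadjusted p under 0.05, against 10.4% of all genes (*Kif23*, *Kif14*, *Kif24*, *Kif27* and *Kif26a*). The CPM of the groups overlapped for every member, and groups that do not overlap were rare among all genes too (0.0934%).

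Fitted log2 fold changes, KO over WT, had medians near 0 in the mitotic and the transport class, and single genes ranged from −0.89 to 0.77 in the mitotic, −2.77 to 0.94 in the transport and −2.05 to 2.06 in the other class. The median was −0.09 over the 14 mitotic genes (4 above and 10 below 0), −0.04 over the 17 transport genes (8 above and 9 below 0) and −0.48 over the 7 other genes (2 above and 5 below 0). The median over all genes kept was −0.02, with 8172 above and 8965 below 0. Standard errors had medians of 0.15, 0.56 and 1.15 in the mitotic, transport and other class, in the order of their counts, so that the estimates of single mitotic genes were the most precise. Without WT embryo 5 the mitotic median was −0.02. With the replicate block, a fit of embryos 1 to 8 of each genotype alone, it was −0.18. The same embryos without the block gave −0.21. The transport median had no stable sign, with −0.27 by limma voom and 0.13 without the 4 kinesin-2 genes.

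**Figure D2:**
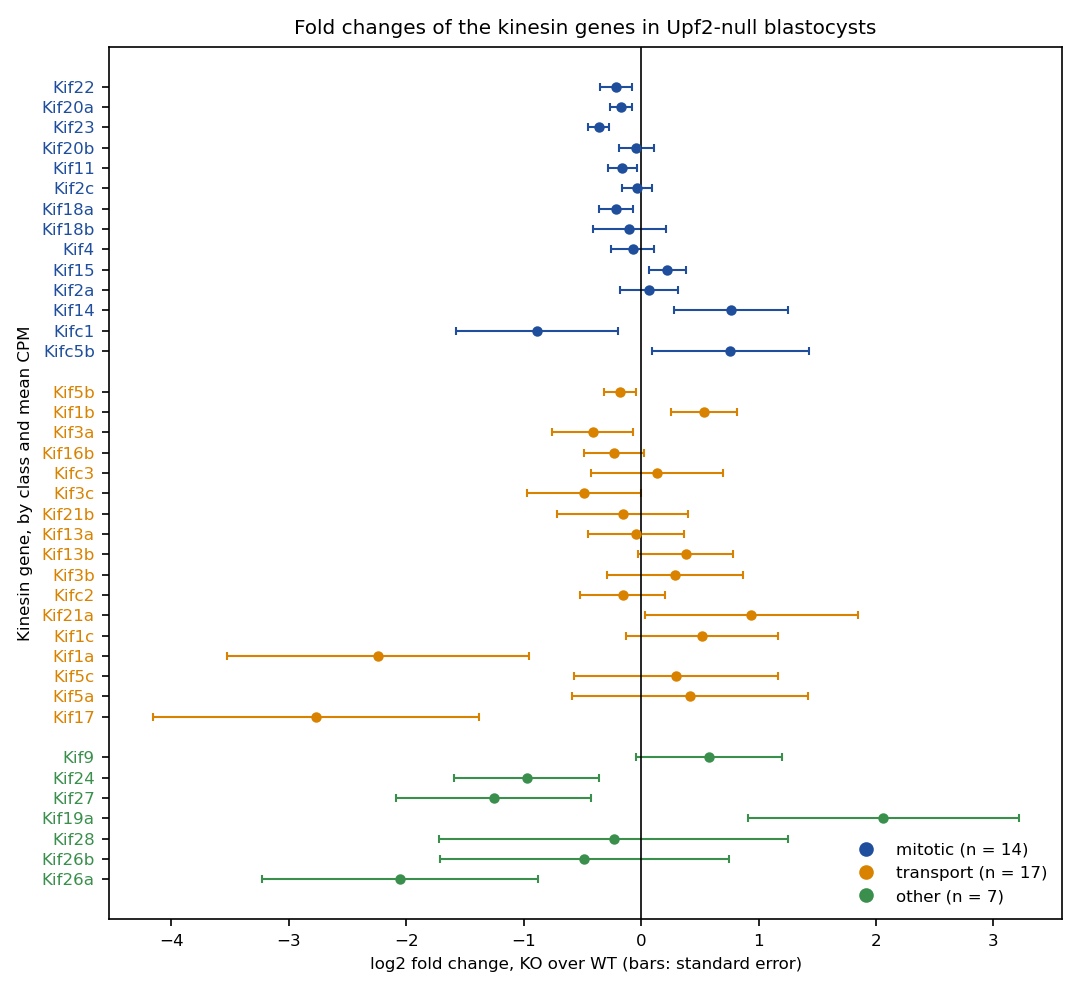
Log2 fold change, KO over WT, of all 38 kinesin genes by edgeR, with bars of 1 standard error, grouped by class (blue, mitotic; orange, transport; green, other) and ordered by mean CPM within it. The abundant mitotic genes, *Kif23* at −0.36 among them, have short bars near 0, *Kif14*, *Kifc1* and *Kifc5b* lie further out at 0.77, −0.89 and 0.76, and the bars lengthen toward the genes of low count.

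*Kif23* encodes the kinesin-6 motor MKLP1, which forms centralspindlin with RACGAP1 and is needed to complete cytokinesis. The gene lies on chromosome 9 of GRCm38 from 61915905 to 61946774. It had 221 CPM in the lowest, a median of 265 and 310 CPM in the highest KO embryo, against 287, 328 and 443 CPM in WT embryos. All 8 KO embryos were below the WT median, and 6 of 8 were below every WT embryo. Such a pattern of all 8 KO embryos below the WT median was met by 2.47% of all genes and by 2 of 38 kinesin genes, the other being *Kif3c*. The means were 262 ± 33.1 CPM (SD, n = 8) in KO and 338 ± 46.2 CPM (SD, n = 11) in WT.

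The log2 fold change of *Kif23* was −0.36, with a standard error (SE) of 0.09 and an adjusted p of 0.137 by edgeR, 0.140 by limma voom and 0.0207 by DESeq2. As a single gene its mean log2 CPM differed by −0.36 (two-sided exact permutation test over 75582 arrangements, p = 0.000476, not adjusted over genes). When each embryo was left out in turn, the log2 fold change stayed between −0.40 and −0.32, and the adjusted p of edgeR between 0.118 and 0.257. Without WT embryo 5 it was −0.35, and without KO embryo 2 it was −0.40. The sign was the same in each of these fits, and only DESeq2 called the gene. The paper, which fitted DESeq2 and used an adjusted p under 0.1, lists *Kif23* among the genes lower in *Upf2*-null blastocysts. *Bora*, *Fgf4*, *Nanog* and *Spast*, described below, are listed there too.

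The other members of the kinesin-6 family had smaller log2 fold changes. *Kif20a* ranged from 234 to 330 CPM (median 290) in KO and from 259 to 446 CPM (median 304) in WT, a log2 fold change of −0.17 (SE 0.09, adjusted p = 0.504). It was below the WT median in 6 of 8 KO embryos, with 2 of them below every WT embryo. *Kif20b* ranged from 155 to 321 CPM (median 203) in KO and from 144 to 342 CPM (median 229) in WT. Its log2 fold change of −0.04 (SE 0.15, adjusted p = 0.971) was within the spread of the embryos.

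*Kif22*, which binds chromosome arms and pushes them toward the spindle equator, had 198 to 368 CPM (median 282) in KO against 190 to 436 CPM (median 329) in WT. The difference on the log2 scale was −0.22 (SE 0.13, adjusted p = 0.593), with 6 of 8 KO embryos below the WT median. *Kif11* had 178 to 236 CPM (median 202) in KO against 171 to 355 CPM (median 215) in WT, a log2 fold change of −0.16 (SE 0.12, adjusted p = 0.703). The KO range of *Kif11* lay inside the WT range, and the value was −0.08 without WT embryo 5 and −0.07 by limma voom.

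Of the remaining mitotic genes, 5 had log2 fold changes between −0.22 and −0.03 or, for *Kifc1*, of −0.89. *Kif18a*, which dampens chromosome movements, was at −0.22, *Kif18b* at −0.10, the chromokinesin *Kif4* at −0.07 and *Kif2c* at −0.03, and adjusted p ranged from 0.641 to 0.973. For the minus-end motor *Kifc1* (−0.89, SE 0.69, adjusted p = 0.722) and its near copy *Kifc5b* (0.76, SE 0.66, adjusted p = 0.772) the values pointed opposite ways, with 102 counts in all KO and 266 in all WT embryos for *Kifc1* and 107 in KO and 88 in WT for *Kifc5b*. Reads from stretches shared by these 2 genes could be counted for either or for neither. How such reads were handled is not given in the sources used here. *Kif15*, which can stand in for *Kif11* in spindle assembly, was at 0.22 (SE 0.16, adjusted p = 0.664) and the depolymerase *Kif2a* at 0.07 (SE 0.25, adjusted p = 0.973).

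*Kif14*, which holds citron kinase at the midbody, was the only member above the WT median in all 8 KO embryos, a pattern of 2.26% of all genes. It had 17.9 to 56.2 CPM (median 29.9) in KO and 0.442 to 46.3 CPM (median 17) in WT. The log2 fold change of 0.77 had an SE of 0.49 and an adjusted p of 0.609 by edgeR, and 6 of 8 KO embryos lay within the WT range. Citron kinase itself, *Cit*, was also above the WT median in all 8 KO embryos, with 86.9 ± 9.95 CPM (SD, n = 8) in KO and 76 ± 17.9 CPM (SD, n = 11) in WT and an adjusted p of 0.684.

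**Figure D3:**
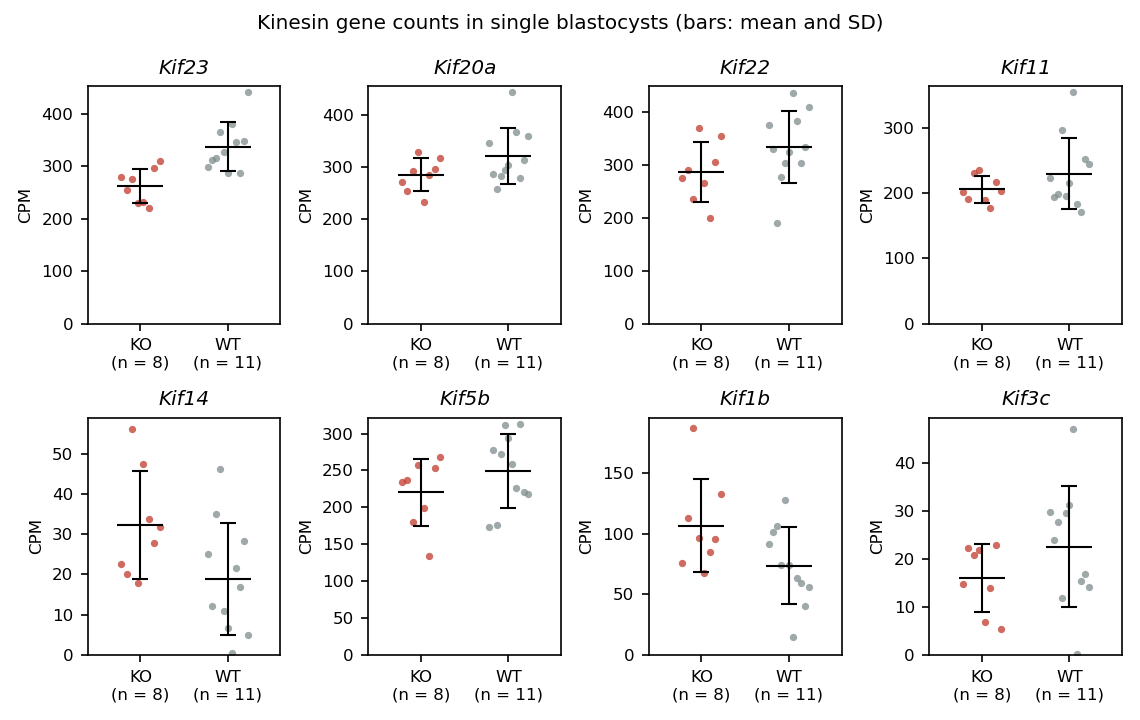
CPM of 8 kinesin genes in single blastocysts on linear axes from 0; each point is an embryo, KO (red, n = 8) left of WT (grey, n = 11), and bars give mean and SD. For *Kif23* all KO points lie at or below 310 CPM, under the WT median of 328 CPM. All KO points also lie under the WT median of 24 CPM for *Kif3c* and above that of 17 CPM for *Kif14*. In the other genes shown, KO and WT points are intermixed over most of their range.

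Transport kinesins were led by *Kif5b*. It had 135 to 268 CPM (median 235) in KO against 174 to 313 CPM (median 259) in WT, a log2 fold change of −0.18 (SE 0.14, adjusted p = 0.709), and 7 of 8 KO embryos were below the WT median. The neuronal heavy chains *Kif5c* and *Kif5a* were near the limit of detection, with 110 and 99 counts in all KO embryos together against 128 and 92 counts in all WT embryos. *Kif5b* had 8877 counts in KO and 13609 in WT embryos, so nearly all counts of conventional kinesin heavy chains were its own. The log2 fold change of *Kif5b* was −0.10 without KO embryo 4. In embryos 1 to 8 of each genotype alone it was −0.07 with the replicate block and −0.06 without it. Of the light chains, *Klc1* had 20 ± 13.1 CPM in KO and 15.2 ± 7.91 CPM in WT, and *Klc2* 1.09 ± 0.84 CPM in KO and 1.41 ± 1.28 CPM in WT (SD, n = 8 and n = 11).

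*Kif1b*, a kinesin-3 motor of mitochondria and synaptic vesicle precursors, had the next highest CPM. It had 67.5 to 187 CPM (median 95.6) in KO and 15 to 128 CPM (median 73.8) in WT, and 7 of 8 KO embryos were above the WT median. Its log2 fold change of 0.54 (SE 0.28) had an adjusted p of 0.471 by edgeR, and the exact permutation test of the single gene gave p = 0.0592. Leaving out KO embryo 7, the highest, brought the value to 0.37. *Kif16b*, which moves early endosomes, had 26.6 to 70.5 CPM (median 47.3) in KO against 26.8 to 106 CPM (median 58.8) in WT, and a log2 fold change of −0.23 (SE 0.26, adjusted p = 0.848). Of its KO values, 1 lay below the WT range and the rest inside it, and the log2 fold change was −0.11 without WT embryo 4, −0.14 without KO embryo 8 and 0.06 by limma voom.

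Among the subunits of kinesin-2, the motor of intraflagellar transport, *Kif3a* had 17.3 to 73.3 CPM (median 50.3) in KO and 8.03 to 132 CPM (median 68.9) in WT. That was a log2 fold change of −0.41 (SE 0.35, adjusted p = 0.753), with 7 of 8 KO embryos below the WT median, and it was −0.26 without WT embryo 5. *Kif3c* had 5.31 to 22.8 CPM (median 17.8) in KO and 0.257 to 47.1 CPM (median 24) in WT. All KO embryos of *Kif3c* were below the WT median, while its lowest value was that of a WT embryo, and the log2 fold change of −0.49 (SE 0.48, adjusted p = 0.821) did not pass. *Kif3b*, the usual partner of *Kif3a*, was at 0.29 (SE 0.58, adjusted p = 0.937). The ciliary motor *Kif17* had 3 counts in all KO embryos and 35 in all WT embryos, with no count in 7 of 8 KO and 6 of 11 WT embryos.

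*Kifc3*, a minus-end motor of epithelial junctions, had 7.37 to 41.1 CPM (median 25.6) in KO and 0.442 to 49.5 CPM (median 16.4) in WT, a log2 fold change of 0.13 (SE 0.56, adjusted p = 0.974) that ran from −0.0039 to 0.31 with 1 embryo left out. The remaining transport genes *Kif13a*, *Kif13b*, *Kif21a*, *Kif21b*, *Kif1c*, *Kif1a* and *Kifc2* had log2 fold changes from −2.24 (*Kif1a*) to 0.94 (*Kif21a*) with SEs of 0.36 to 1.29. Adjusted p ran from 0.538 to 0.992. *Kif1a*, a motor of neurons, had 41 counts over the KO embryos, 5 of which had none, and 258 over the WT embryos, 2 of which had none.

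The other class held genes of motile cilia, centrioles and signalling, all below 20 CPM on average. *Kif9*, a motor of the sperm flagellum and motile cilia, had 0.951 to 27.8 CPM (median 12.8) in KO and 0 to 20.7 CPM (median 7.87) in WT. *Kif24*, a depolymerase at the mother centriole that restrains the growth of cilia, had 0.221 to 18.1 CPM (median 2.84) in KO and 4.67 to 33.6 CPM (median 7.4) in WT. For *Kif24*, 5 of 8 KO embryos were below every WT embryo, but 2 were above the WT median, and the log2 fold change was −0.98 (SE 0.62, adjusted p = 0.607 by edgeR). The exact permutation test of its mean log2 CPM alone gave p = 0.0272, not adjusted over genes. The log2 fold change of *Kif24* was −0.68 without WT embryo 5, −1.48 without KO embryo 8 and −1.77 by limma voom (adjusted p = 0.327).

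*Kif27*, a relative of *Kif7* that acts in motile cilia, had 0 to 11.8 CPM (median 1.91) in KO and 0.751 to 30.5 CPM (median 5.93) in WT, a log2 fold change of −1.26 (SE 0.83, adjusted p = 0.631). It was −0.76 without WT embryo 5 and −1.94 without KO embryo 7, and 7 of 8 KO embryos were below the WT median. *Kif19a*, which shortens ciliary microtubules, had 0 to 9.03 CPM (median 0.496) in KO and 0 to 3.17 CPM (median 0.212) in WT. The log2 fold change of *Kif19a* was 2.06 (SE 1.15, adjusted p = 0.520), and 3 of 8 KO embryos were above every WT embryo while 3 had no count. For *Kif9* it was 0.58 (SE 0.62, adjusted p = 0.841), and 0.34 without KO embryo 2. The last 3 genes were at or near 0 in most embryos: *Kif28* had 22 counts over KO and 31 over WT embryos, *Kif26b* 14 and 27, and *Kif26a* 2 and 15.

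Summed over their genes, mitotic kinesins gave 1732 to 2057 CPM per embryo (median 1849) in KO and 1738 to 2736 CPM (median 2049) in WT. Transport kinesins summed to 386 to 720 CPM (median 604) in KO and 490 to 747 CPM (median 575) in WT. The ratio of the mitotic to the transport sum was 3.37 ± 0.55 (SD, n = 8) in KO and 3.59 ± 0.74 (SD, n = 11) in WT, and the ranges overlapped from 2.78 to 4.48. WT embryo 5, at 2736 CPM, had the highest mitotic sum and was the highest WT embryo for 6 of the 14 mitotic genes. The mean mitotic sum was 1889 ± 144 CPM (SD, n = 8) in KO against 2020 ± 189 CPM (SD, n = 10) in WT without that embryo, where the sums ended at 2296 CPM, a comparison added after the data were seen. The 38 genes together took 0.252 ± 0.0249% of all counts in KO and 0.268 ± 0.0211% in WT.

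**Figure D4:**
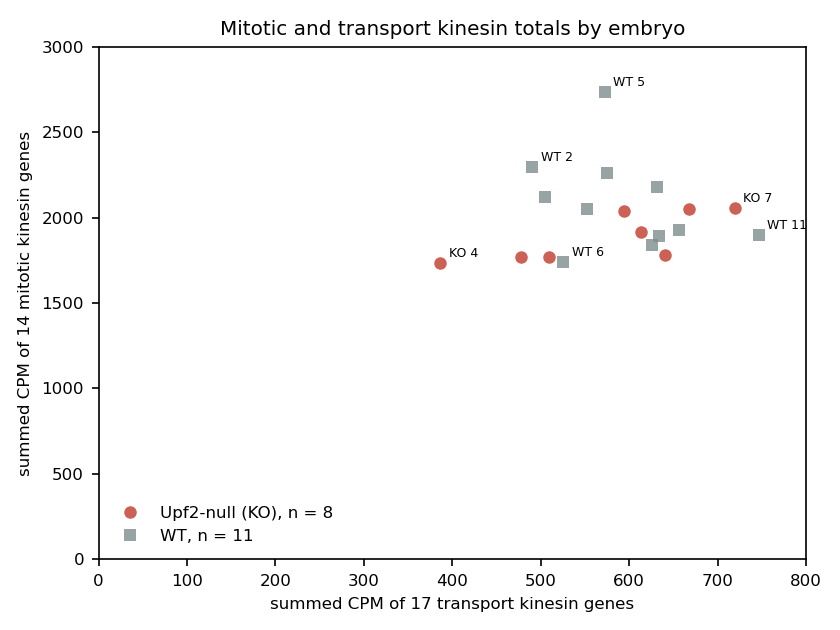
Summed CPM of the 14 mitotic kinesin genes against that of the 17 transport kinesin genes in each embryo, on linear axes from 0 (red circles, KO, n = 8; grey squares, WT, n = 11), with 6 embryos named. KO embryos lie between 1732 and 2057 CPM of mitotic kinesins, level with the lower WT embryos, which start at 1738 CPM, and WT embryo 5 stands highest at 2736 CPM.

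Embryos of one genotype differed far less in mitotic than in transport kinesin genes. The coefficient of variation between embryos had a median of 24.5% in KO and 23.7% in WT for mitotic genes, of 60.2% in KO and 68.3% in WT for transport genes, and of 123% in KO and 162% in WT for the other genes. The classes also differed in their counts, and at a given level the kinesin genes resembled other genes. Of the 8 members between 100 and 1000 CPM, 7 were mitotic, and their median coefficients of 16.7% in KO and 20.4% in WT stood beside 18% and 17.6% for all genes in that range. Between 5 and 20 CPM, where 7 transport and no mitotic genes lay, the medians were 71.7% in KO and 66% in WT beside 65.3% and 67.4% for all genes.

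The steadiest members were *Kif11* in KO, at 10%, and *Kif23* in WT, at 13.7%, both well above the counting error of 3.03% and 2.57% that their mean counts imply. *Kif18b* had 46.1% in KO and 36.7% in WT, beside medians of 37.4% and 38% for all genes between 20 and 100 CPM. Its lowest KO embryo had 12.2 CPM, where the KO median was 93.9 CPM.

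**Figure D5:**
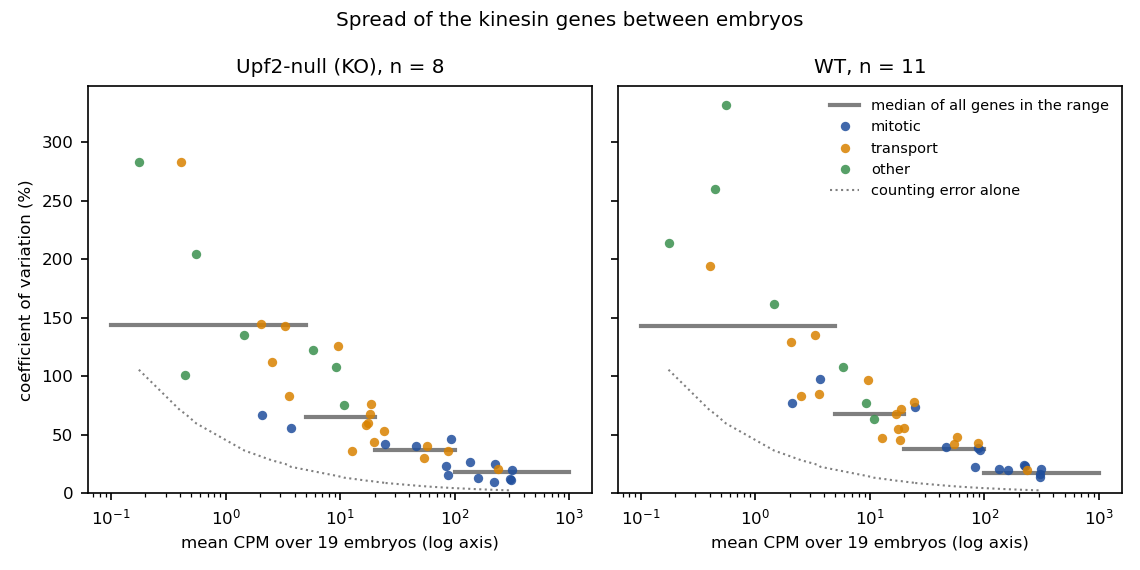
Coefficient of variation between embryos (%) against mean CPM over 19 embryos (log axis) for the 38 kinesin genes, KO (left, n = 8) and WT (right, n = 11), coloured by class; thick bars are medians over all genes of a level range, and the dotted line is counting error alone. The kinesin genes follow the fall of the medians from about 143% to 18% with rising level.

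NMD degrades mRNAs with an early stop codon or certain downstream introns, and some genes have annotated transcripts marked as its targets. GENCODE M21 held such a transcript for 10 of the 38 members, among them *Kif20a*, *Kif20b*, *Kif15*, *Kif14* and *Kif3a*. Their median log2 fold change was −0.16, with 3 above and 7 below 0, against −0.09, with 11 above and 17 below 0, for the 28 members without one. Gene counts do not separate transcripts, so the levels of these transcripts alone were not measured. *Kif23* had no transcript marked as an NMD target and 7 with a retained intron.

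Transcripts assembled by the authors over all embryos held 87 models at 26 members beyond the annotation used to guide them. Models beyond the annotation were found at 12 of 14 mitotic, 11 of 17 transport and 3 of 7 other members. Of the 87, 63 had a splice junction absent from the GENCODE M21 transcripts of the kinesin gene itself, and junctions of other genes were not compared. *Kif20b* had 8 models with such a junction and *Kif18a* 6. The assembly was merged over both genotypes and gives no value per embryo, so their levels in KO and WT were not compared.

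Genes whose products work with kinesins were taken from lists by role, and none was called by edgeR in either direction. Over all genes, 12.5% had an unadjusted p under 0.05 by edgeR, a share to set beside the counts in each list. DESeq2 called 1.2% of all genes it tested and limma voom 0.654%. Of 12 central spindle and cytokinesis genes, 5 were above and 7 below 0, with a median log2 fold change of −0.11, and 1 had an unadjusted p under 0.05. That gene was *Rhoa*, the GTPase of the contractile ring, with 174 to 209 CPM (median 195) in KO and 189 to 275 CPM (median 218) in WT and a log2 fold change of −0.18 (SE 0.07, adjusted p = 0.274). *Racgap1*, the partner of *Kif23*, had 242 ± 52.9 CPM (SD, n = 8) in KO and 274 ± 35.8 CPM (SD, n = 11) in WT, a log2 fold change of −0.18 (SE 0.12, adjusted p = 0.612). *Prc1*, which bundles the central spindle with *Kif4*, was at −0.11 (SE 0.09, adjusted p = 0.721), and *Aurkb*, the kinase that *Kif20a* carries, at −0.13 (SE 0.13, adjusted p = 0.821).

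The 26 measured genes of spindle assembly and chromosome segregation had a median log2 fold change of 0.03, with 14 above and 12 below 0 and 2 at an unadjusted p under 0.05 (*Bora* and *Ccna2*, both below 0). *Bora*, an activator of Aurora A, had the lowest p of them, with 97.4 ± 20.6 CPM (SD, n = 8) in KO and 144 ± 35 CPM (SD, n = 11) in WT, with an adjusted p of 0.177 by edgeR and 0.0366 by DESeq2, which called 1 gene of the list. *Cenpe*, a kinesin of kinetochores whose symbol falls outside the family rule, had 320 ± 87.8 CPM in KO and 340 ± 54.7 CPM in WT (SD, n = 8 and n = 11), which on the log2 scale was a difference of −0.09 (SE 0.14, adjusted p = 0.909).

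For cargo, 18 light chain and adaptor genes had a median log2 fold change of −0.08, with 2 at an unadjusted p under 0.05 (*Arl8b* and *Mapk8ip1*), both below 0. *Mapk8ip1* was near the limit of detection, with means of 0.047 CPM in KO and 0.80 CPM in WT and a median of 0 in both. DESeq2 gave no adjusted p for *Mapk8ip1*. *Arl8b*, the lysosomal GTPase that recruits kinesin-1 through its adaptor, had the lowest p, with a log2 fold change of −0.30 (SE 0.09, adjusted p = 0.253). The opposite motor, dynein with dynactin, had 23 measured genes at a median of 0.10, 18 above and 5 below 0 and 3 at an unadjusted p under 0.05, *Dctn5* and *Bicd2* above 0 and *Actr10* below. Of these, *Actr10* of dynactin had the lowest p (−0.25, SE 0.08, adjusted p = 0.259). DESeq2 and limma voom called 0 genes of either list.

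The track itself gave similar values. Of 16 measured tubulin genes, 6 were above and 10 below 0, and *Tube1*, a centriolar tubulin, had the lowest p, with a log2 fold change of 0.65 (SE 0.24, adjusted p = 0.263) and 8 of 8 KO embryos above the WT median. Of 17 genes for severing and plus-end proteins, 8 were above and 9 below 0. *Spast*, the severing enzyme spastin that also acts in abscission, had 39.6 to 60.2 CPM (median 54.3) in KO and 44 to 108 CPM (median 78.7) in WT. All KO embryos were below the WT median for *Spast*, and its log2 fold change of −0.56 (SE 0.15) had an adjusted p of 0.179 by edgeR and 0.0266 by DESeq2. It was the gene of that list called by each of DESeq2 and limma voom.

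Lineage markers were read beside these values, and their groups overlapped. The summed CPM of 8 epiblast markers was 382 to 467 (median 420) in KO and 430 to 855 (median 568) in WT. By mean, *Nanog* was the largest part of these sums, with 175 CPM in KO and 243 CPM in WT. Of the 8, 5 had a log2 fold change below 0, and 3 (*Nanog*, *Fgf4* and *Klf2*) had an unadjusted p under 0.05. *Sox2* (0.09), *Esrrb* (0.48) and *Prdm14* (0.48) were above 0. The lowest p of the 8 was that of *Nanog* (−0.47, SE 0.12, adjusted p = 0.150 by edgeR and 0.0277 by DESeq2). DESeq2 called 2 of the 8, *Nanog* and *Fgf4* (adjusted p = 0.0577), and edgeR and limma voom 0. Among all genes, DESeq2 called 1.2% of those it tested, and 12.5% had an unadjusted p under 0.05 by edgeR. Sums of primitive endoderm markers were 847 to 1109 CPM in KO and 818 to 1090 CPM in WT, with *Pdgfra* at the lowest p (0.94, SE 0.78, adjusted p = 0.750). Most of these sums came from *Dab2*, with means of 657 CPM in KO and 652 CPM in WT, which the paper counts as a trophectoderm marker. *Gata4*, *Sox17* and *Sox7* had means of only 1.64 to 4.57 CPM, so the sums say little about primitive endoderm. Trophectoderm markers summed to 1288 to 1912 CPM in KO and 961 to 2071 CPM in WT, with *Id2* at the lowest p (0.53, SE 0.25, adjusted p = 0.398). The part of the epiblast markers in the *Kif23* values was not tested.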

How the data were processed

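Whole E3.25 blastocysts were sequenced as 1 library each (8 KO, 11 WT), with PCR amplification and no molecular identifiers. The authors trimmed adapters, aligned reads with STAR 2.5.2a, removed duplicates with SAMtools and deposited raw counts per Ensembl gene from featureCounts; the strand setting is not given in the sources used here. The highest count of any gene in an embryo was 4884, and whether duplicate removal capped abundant genes was not tested. Transcript positions in bases (mm10) were deposited by the authors from StringTie 1.3.3b. A deposited table of scaled values was not used.

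Symbols came from GENCODE M21 (40340 of 41388 identifiers matched). Genes reaching 10 counts in any 1 embryo were fitted with edgeR 4.0.16 (R 4.3.3; TMM, robust quasi-likelihood, genotype alone), and Benjamini-Hochberg adjusted p under 0.1 over 17137 genes was called. The study fitted DESeq2, which was an alternative here (1.42.0). Other alternatives were limma 3.58.1 voom with quality weights, other scaling, other filters (none, or 10 counts in at least 8 embryos), a replicate block, each embryo left out, WT embryos 2 and 4 left out, adjusted p under 0.05, narrower classes, members of at least 5 CPM, and exact permutation of log2 CPM (prior count 2). Counts were simulated over 16056 genes for this design, with changes placed only in genes of at least 5 CPM on average. In them edgeR recovered 40% of 2-fold and 81% of 4-fold changes, with 19.9% of its calls unchanged genes. DESeq2 recovered 55% and 86%, with 28.4% unchanged. Changes below 2-fold, such as that of *Kif23*, were not simulated, nor were changes at lower levels, where 11 of the 38 members lay.

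Described members were those with an unadjusted edgeR p under 0.05, the 5 highest in mean CPM of each class, and any whose groups did not overlap. *Kif14* and *Kif3c* were added after their values were seen, for all 8 KO embryos lying on 1 side of the WT median. The other members are given in groups. Of each partner list the gene with the lowest p is named where none was called, and the other partners, including those counted at an unadjusted p under 0.05, were named after their values were seen. Members, classes and lists were chosen with earlier results of these data known. P-values measure the spread between these embryos. Embryos of 1 genotype differed beyond counting error (chi-square per gene at least 10.5), so none was a second sequencing of another's library. Counting error leaves out the noise of amplification, so the value cannot tell embryos from separate amplifications of 1 embryo.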

Additional observations from a re-analysis of the deposited data

Results flagged for a closer look

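Each of the 38 kinesin genes was searched for a KO embryo far from the other 7, and 3 genes were found, all with few counts. Chance alone picks about 1 in 20 such groups when values are normally distributed, which counts near 0 are not. A gene with counts in only 1 KO embryo, as for *Kif17* and *Kif26a*, is picked whatever its count. *Kif17* had 0.578 CPM in KO embryo 1 and none in the others, from 3 counts in all. *Kif26a* had 0.354 CPM in KO embryo 2 and none in the others, from 2 counts in all. *Kif28* had 2.96 CPM in KO embryo 3, against 0 to 0.591 CPM in the other KO embryos. The WT group has more than 10 embryos and was not searched.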

How the results depend on the processing

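The number of genes called was 33 by edgeR, 176 by DESeq2, 112 by limma voom and 11 at an adjusted p under 0.05, and 14 (without KO embryo 4 or 5) to 43 (without KO embryo 3) with 1 embryo left out. The shared numbers 1 to 8 did not pair KO with WT embryos (correlations of deviations −0.14 to 0.07; 1 of 8 KO embryos matched its own number best). With the replicate block edgeR called 0 genes, and so 0 kinesin genes, while 684 genes of that fit had an unadjusted p under 0.05. The same embryos without the block, a fit added after the data were seen, gave 24 calls. Kinesin genes called were 1 by DESeq2 (*Kif23*, log2 fold change −0.37) and 0 in every other fit. Leaving out 1 embryo gave mitotic medians of −0.14 to −0.02 and transport medians of −0.15 (without KO embryo 6) to 0.05 (without KO embryo 1). The transport median was also 0.05 in embryos 1 to 8 without the block and −0.11 without WT embryos 2 and 4, and the mitotic median −0.21 and −0.10. Among the 15 genes described by embryo, those that changed sign were *Kif20b* (0.0067 by voom; −0.14 to 0.025 with 1 embryo left out), *Kif16b* (0.058 by voom), *Kifc3* (−0.0039 without WT embryo 5, 0.31 without WT embryo 4) and *Kif28*. For *Kif28* the value was −0.23 by edgeR, 3.72 by DESeq2, 1.14 by voom, 2.11 with the block, 4.41 without WT embryos 2 and 4, 0.32 as a difference of mean log2 CPM, and −1.86 to 4.39 with 1 embryo left out; WT embryo 4 held 6.55 CPM of it. Among the other members, *Kif4* (0.06), *Kif5c* (−0.75), *Kif5a* (−0.27) and *Kif26b* (0.76; 1.70 by DESeq2) changed sign by voom. The causes were not tested. Below about 20 CPM, standard errors above 0.35 allow only differences far above those of the mitotic genes to be called.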
